A study of Homo sapiens with 8 samples.

Results

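The control state of BE2C, a human neuroblastoma cell line with amplified MYCN, was described from the 4 control arrays of a study that profiled these cells on 8 Clariom S arrays. The 4 arrays were chosen by their labels alone: 2 carried RNA from cells transfected with control siRNA at 30 nM for 48 h, and 2 carried RNA from cells given 0.1% DMSO for 24 h. The other 4 arrays held RNA from cells transfected with KDM6B siRNA or treated with the KDM6 inhibitor GSK-J4. Per the study's methods the control siRNA was a single non-targeting oligo delivered with a lipid reagent. All cells came from 1 line grown in the same medium with serum, and the labels call the 2 arrays of each group biological replicates. Control siRNA differed from DMSO in transfection, in the siRNA, in the vehicle and in the time to harvest, and these could not be told apart in any comparison of the groups. Neither group held cells without any addition.

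Neuroblastoma arises from the sympathoadrenal branch of the neural crest, the embryonic lineage that gives rise to sympathetic neurons and to the chromaffin cells of the adrenal medulla. Its adrenergic state is held by a circuit of transcription factors that includes PHOX2A, HAND2, GATA3, ISL1 and TBX2, and is marked by the enzymes and storage proteins of catecholamine synthesis. A mesenchymal state, with genes such as PRRX1, VIM, FN1 and YAP1, is known in other lines and in a share of tumor cells. Non-targeting siRNA is meant to leave gene expression alone, but lipid transfection and double-stranded RNA can each engage innate sensing and stress pathways in cells.

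Values are log2 expression, 1 per gene and array. An array's background was taken as the 95th percentile of its 612 negative control probe sets, which was 4.77 and 4.85 on the control siRNA arrays, against 4.62 and 4.89 on the DMSO arrays. Above it lay 13193 and 13033 of 17687 genes on the control siRNA arrays, against 13633 and 12999 on the DMSO arrays. Replicates correlated across genes with r = 0.996 for control siRNA and 0.994 for DMSO, and arrays of different groups with r from 0.993 to 0.994. Genes are not independent replicates, so these values only describe the arrays. The replicate difference had an SD of 0.19 for control siRNA and 0.23 for DMSO, with 3 and 8 genes more than 1 log2 unit apart. The widest of them were MACC1-OT1 at 2.87 and 4.01 on the control siRNA arrays, and CCDC169-SOHLH2 at 4.85 and 6.11 on the DMSO arrays.

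In total 12710 genes (71.9%) were above the negative controls on all 4 arrays and 3892 (22%) on none. A further 495 genes were above on 1 array, 247 on 2 and 343 on 3. A mean over 8 was reached by 4273 genes (24.2%), a mean over 10 by 827 (4.68%) and a mean over 12 by 39 (0.221%). The negative controls are a lenient background for probes rich in G and C. The array's background probe sets grouped by GC content had means of 2.26 at 3 GC bases and 7.33 at 22 GC bases. Only 5583 genes (31.57%) were above the highest of these on all 4 arrays. A gene between these limits is therefore called above the negative controls here, and not detected.

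The strongest signals came from the machinery that every growing cell uses. TUBA1B, an alpha tubulin, was highest at 13.07 and 13.14 with control siRNA and 13.08 and 13.07 with DMSO. It was followed by RPL38 at a mean of 12.78, the translation elongation factor EEF1A1 at 12.75, the glycolytic enzyme GAPDH at 12.64, and RPS23 at 12.63. Of the next 15 genes, 6 were ribosomal proteins: RPS10, RPS21, RPS15, RPS25, RPL37A and RPS7. The others were the prolyl isomerase PPIA, the actin ACTG1, the splicing factor HNRNPA1, the growth-linked RNA-binding protein PA2G4, the ATP synthase subunits ATP5F1B and ATP5PF, the histone H4C3, the tubulin TUBA1C and the miRNA gene MIR4485. The SD over the 4 arrays was between 0.02 and 0.12 for these 20 genes, so the groups lay close for all of them. Probe sets differ in how they respond to a transcript, so the order is one of array signal and not of abundance.

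MIR4485 stood out in that list as a small RNA gene on an array made for longer transcripts. Its probe set read 12.38 and 12.39 with control siRNA and 12.14 and 12.31 with DMSO, and the groups did not overlap. The mature miRNA lies at chr11:10508277-10508296 on the minus strand of GRCh38.p14, inside MTRNR2L8 (10507887 to 10509176), a nuclear copy of a mitochondrial ribosomal RNA segment. Its sequence from RefSeq is shown because the probe set cannot be read as the miRNA alone: RNA of MTRNR2L8 or of the mitochondrial original holds the same or nearly the same letters. Capitals mark the seed, bases 2 to 8.
hsa-miR-4485-3p: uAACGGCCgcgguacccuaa

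Just below the first 20 came genes that mark the tumor type. DLK1, an imprinted Notch-family ligand of chromaffin cells and their precursors, was at rank 21 with 12.11 and 12.15 under control siRNA and 12.32 and 12.17 under DMSO. UCHL1, a neuronal ubiquitin hydrolase, averaged 12.10 over the 4 arrays. MYCN, the amplified oncogene of this line, was at rank 28 with 12.06 and 12.06 under control siRNA and 12.16 and 12.12 under DMSO. The imprinted growth factor IGF2 was at rank 40 with 11.92 and 11.93 under control siRNA and 12.10 and 12.01 under DMSO. These 4 genes stood among ribosomal proteins, which took 22 of the first 50 ranks.

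Gene families separated clearly against the negative controls. All 74 mitochondrial ribosomal proteins and all 30 nuclear complex I subunits were above on all 4 arrays, as were 48 of 49 cytosolic ribosomal proteins, with the testis-biased RPL10L lowest at 4.84. The proteasome had 34 of 36 subunits above. Its exceptions were PSMB9, a subunit of the interferon-induced immunoproteasome, at 3.81, and PSMA8, a subunit of the proteasome of male germ cells, at 4.28. The chaperonin had 8 of 9, with the testis form CCT6B at 3.66. Families of specialised tissues lay at the other end: 21 of 349 olfactory receptors (6.02%), 1 of 24 taste receptors, 3 of 26 beta-defensins and 1 of 13 interferon alpha genes were above on all 4 arrays, against 71.9% of all genes. The highest olfactory receptor, OR6B2, averaged 6.11. Keratin-associated proteins (34 of 86) and late cornified envelope genes (10 of 18) were above more often, and LCE1E reached 10.20, although both belong to hair and skin. Members of these multigene families share sequence, and what their probe sets read in these cells was not tested.

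**Figure D1:**
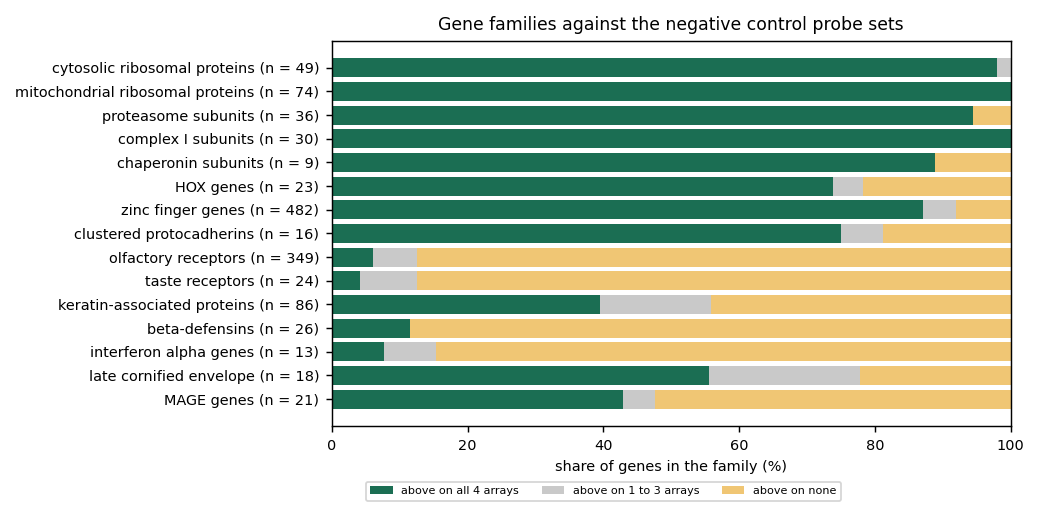
Share of the genes of each family, in percent, that lay above the 95th percentile of the negative control probe sets on all 4 control arrays, on 1 to 3 or on none, with the number of genes n beside each name. Ribosomal, proteasome and complex I genes fill the green bars, and 305 of 349 olfactory receptors were above on no array.

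HOX genes, which set position along the body axis, were above on all 4 arrays in 17 of 23 measured cases. That is 73.9%, close to the 71.9% of all genes. HOXC8 averaged 8.31, HOXC9 8.06, HOXD13 7.55 and HOXC10 7.28. HOXA2, HOXB8, HOXC11, HOXC12 and HOXC13 were above on no array, and HOXD4 was above on 2. Of these named genes the highest signals thus came from HOXC8, HOXC9, HOXD13 and HOXC10, and HOXA2 was the lowest of the family at 3.18. HOXC10 lay under the mean of 7.33 of the highest GC background. Among other neuronal surface molecules, 12 of 16 clustered protocadherins (75%) were above on all 4 arrays, also near that share, with PCDHB16 highest at 9.02. Cancer-testis genes of the MAGE family were above in 9 of 21 cases, with MAGEA3 at 7.03 and MAGEA8 at 6.93.

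Adrenergic markers, which fit the tumor type in the labels, were mostly high. All 17 measured adrenergic transcription factors were above the negative controls on all 4 arrays, and 14 were above the highest GC background. After MYCN the highest were KLF7 at 11.20, HAND1 at 10.95, MEIS2 at 10.48, TBX2 at 10.16 and GATA2 at 9.99. PHOX2A, a master regulator of noradrenergic neurons, read 9.85 and 10.11 with control siRNA and 9.96 and 9.76 with DMSO. HAND2, which acts with it in sympathetic development, read 9.36 and 9.40 with control siRNA and 9.53 and 9.41 with DMSO. ISL1 averaged 9.82, GATA3 9.53 and TFAP2B 8.25. The lowest of the list was INSM1, a zinc finger factor of neuroendocrine precursors, at 6.46.

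Of the catecholamine pathway, from synthesis to storage, 15 of 15 measured genes were above the negative controls on all 4 arrays and 12 above the highest GC background. CHGA and CHGB, granins of the dense-core vesicle, averaged 11.29 and 10.66. SLC6A2, the noradrenaline transporter that takes up the imaging agent MIBG, averaged 10.62, and DBH, which makes noradrenaline from dopamine, 10.56. The vesicular transporter of chromaffin cells, SLC18A1, averaged 9.03, and SLC18A2, the form of neurons, 6.99. DDC averaged 8.85, TH 8.70 and the cofactor enzyme GCH1 7.85. PNMT, which turns noradrenaline into adrenaline, was the lowest at 5.84. SLC18A2, MAOA and PNMT were not above the highest GC background.

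All 23 measured neuronal cytoskeleton and synapse genes were above on all 4 arrays as well, and 18 were above the highest GC background. Besides UCHL1, the highest were the growth-cone protein STMN2 at 11.77, the neurofilament NEFM at 11.58, NCAM1 at 11.34, the intermediate filament INA at 11.30 and MAP2 at 10.89. The lowest was RTN1, a protein of the endoplasmic reticulum in neurons, at 5.31. Neuropeptides were mixed, with 2 of 12 above the highest GC background: GAL averaged 9.51, the prohormone convertase inhibitor PCSK1N 9.45, VIP 7.76, VGF 7.41 and NPY 6.98, while CARTPT at 3.89 and NTS at 3.69 were above on no array.

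Receptors divided the line further. Of 14 measured receptor tyrosine kinases and neurotrophin receptors, 8 were above on all 4 arrays and 6 on none, and 3 were above the highest GC background. IGF1R, a receptor for IGF2, averaged 9.45, RET 9.39, PDGFRB 8.04, EGFR 7.59, FGFR1 6.99, ALK 6.63, ERBB4 6.60 and NGFR 6.39. PDGFRA at 4.47, NTRK3 at 3.83, ERBB3 at 3.59, MET at 3.34, KIT at 3.12 and NTRK2 at 2.95 were above on none. Thus the receptor for KIT ligand was not above the negative controls here, while its ligand gene KITLG, at a mean of 6.07, was. KITLG did not reach the highest GC background, so it is not called detected. Among genes in use as neuroblastoma targets, L1CAM averaged 9.92, the GDNF-family receptor GFRA2 9.90, CD276 (B7-H3) 8.56, DLL3 7.69 and the GD2 pathway enzyme B4GALNT1 6.78, whereas GPC2 at 5.01 was above on 3 arrays and GFRA3 at 4.64 on none.

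Mesenchymal genes were lower as a list, with 13 of 19 above on all 4 arrays and 3 above the highest GC background. THY1, which neurons also carry, averaged 10.33 and VIM 8.93, followed by MAML2 at 7.73, TGFB1 at 7.67, JUNB at 7.37 and FOSL2 at 7.20. The Hippo effector YAP1 at 4.04, NOTCH2 at 4.09 and TGFBR2 at 4.52 were above on no array, PRRX1 at 4.90 was above on 2 and WWTR1 at 4.74 on 1. Of 15 genes of neural crest and progenitor cells, 13 were above on all 4 arrays. LIN28B, an inhibitor of let-7 maturation that is tied to MYCN in this tumor, averaged 8.81, SNAI2 8.50, TWIST1 8.50 and SOX10 7.72. FOXD3 at 4.66 was above on 1 array and MSX1 at 4.56 on none.

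The MYC family was led by MYCN at a mean of 12.10. MYC itself averaged 4.97 and was above the negative controls on 3 of 4 arrays, and MYCL averaged 6.21. DDX1, a close neighbour of MYCN that is often amplified with it, averaged 9.38, and NBAS, also on that arm, 6.30. Of the enzymes acting on lysine 27 of histone H3, KDM6B averaged 8.32, its relative KDM6A 6.72, the methyltransferase EZH2 8.83 and EZH1 6.79. CCND1, the cyclin partner of CDK4 and CDK6, averaged 11.45, CDK4 10.95, RB1 9.84, CDK6 9.03 and the cell-cycle inhibitor CDKN2A 9.96. Proliferation genes were above throughout, with 57 of 57 E2F targets and 64 of 64 G2/M genes above on all 4 arrays. Of imprinted and oncofetal genes, IGF2BP1 averaged 10.31, IGF2BP3 9.52, PEG10 8.66 and HMGA2 4.85, the last above on 2 arrays.

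Marker genes of other cell types were mostly low. Leukocyte markers were above on all 4 arrays in 3 of 7 cases: NKG7 at 6.76, CD14 at 5.98 and CD68 at 5.08. Endothelial markers were above in 3 of 6, epithelial markers in 4 of 6, melanocyte markers in 1 of 4 and Schwann and glial markers in 3 of 7. Members above on no array included KDR at 2.86, CDH1 at 2.98, CD3E at 3.74, LYZ at 3.84, EPCAM at 4.43 and TYR at 4.39. The highest member averaged 6.99 for epithelial, 6.06 for endothelial and 6.74 for melanocyte markers. None of the leukocyte, endothelial, epithelial or melanocyte markers was above the highest GC background. Some markers were higher. Among fibroblast markers LUM at 7.95, DCN at 7.87, COL1A2 at 7.64 and COL1A1 at 6.56 were above on all 4 arrays, and PDGFRA and POSTN on none. Of 8 erythroid, hepatocyte and muscle markers 4 were above, led by the skeletal actin ACTA1 at 8.82, while ALB, TTR, CKM and HBB were above on none. Above the highest GC background were 3 of 6 fibroblast markers, 1 of these 8 and 1 of 7 Schwann and glial markers. In RNA from whole cultures, fewer cells with such RNA and less of it per cell cannot be told apart.

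**Figure D2:**
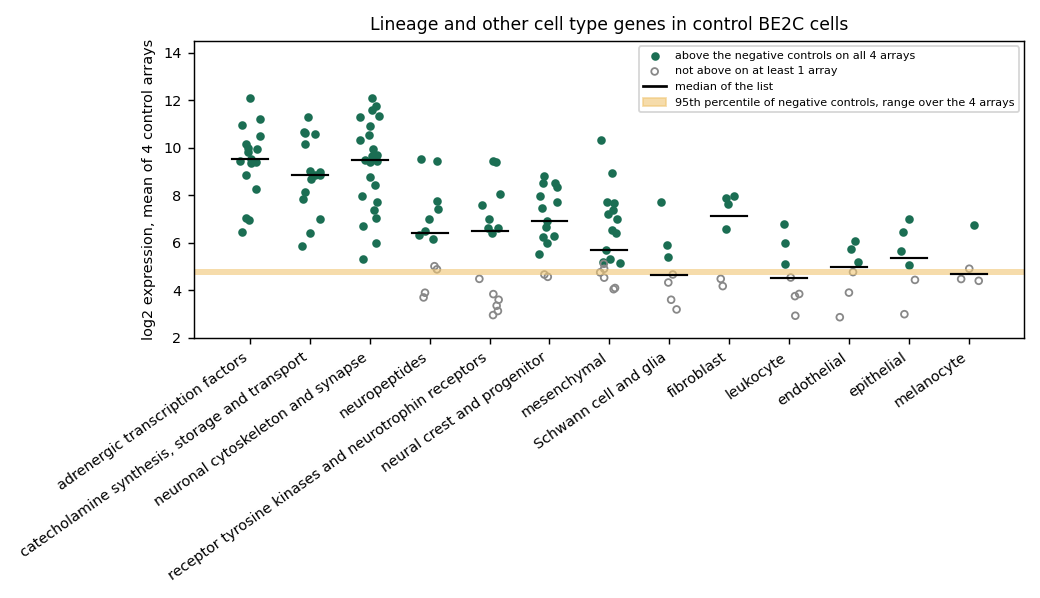
Mean log2 expression over the 4 control arrays for each measured gene of the lineage and other cell type lists. Filled points were above the negative controls on all 4 arrays, open points were not, the line is the list median and the band spans the 4 arrays' background. The median was 9.53 for adrenergic transcription factors, 5.69 for mesenchymal genes and 4.53 for leukocyte markers.

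Among the 3892 genes above on no array were, besides the sensory receptor families, much of the interferon system. Of 36 measured interferon-stimulated and RNA-sensing genes, 16 were above on none. They included the cytosolic RNA sensors RIGI at 3.13 and IFIH1 at 2.68, the endosomal sensor TLR3 at 3.65, and IFIT1 at 3.89, IFI44L at 2.52 and CXCL10 at 3.04. EIF2AK2, the kinase that responds to double-stranded RNA, was the highest of the list at 9.18. The cytokines IL6 at 3.43, CXCL8 at 3.70 and CCL2 at 4.50 were likewise above on none.

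Control siRNA was then set against DMSO. In total 27 of 17687 genes passed the test (0.153%), of which 20 rose (0.113%) and 7 fell (0.0396%) with control siRNA, at an adjusted p under 0.05 from limma over all genes (n = 2 arrays a group). At that share a short gene list is likely to hold none, so 0 passing in a list below says little of its members. TRIM29 fell most, and VIP, PLPP4, PARM1 and PLXNA4 rose most. An unadjusted p under 0.05 was reached by 1717 genes (9.71%), of which 1002 were higher (5.67%) and 715 lower (4.04%). A difference over 1 log2 unit was found in 19 genes (0.107%), 15 higher (0.0848%) and 4 lower (0.0226%). The 2 groups did not overlap for 7064 genes (39.9%). The median difference over all genes was -0.00, but the deposited values already had nearly equal medians on all arrays, so a shift common to all genes would not be visible.

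**Figure D3:**
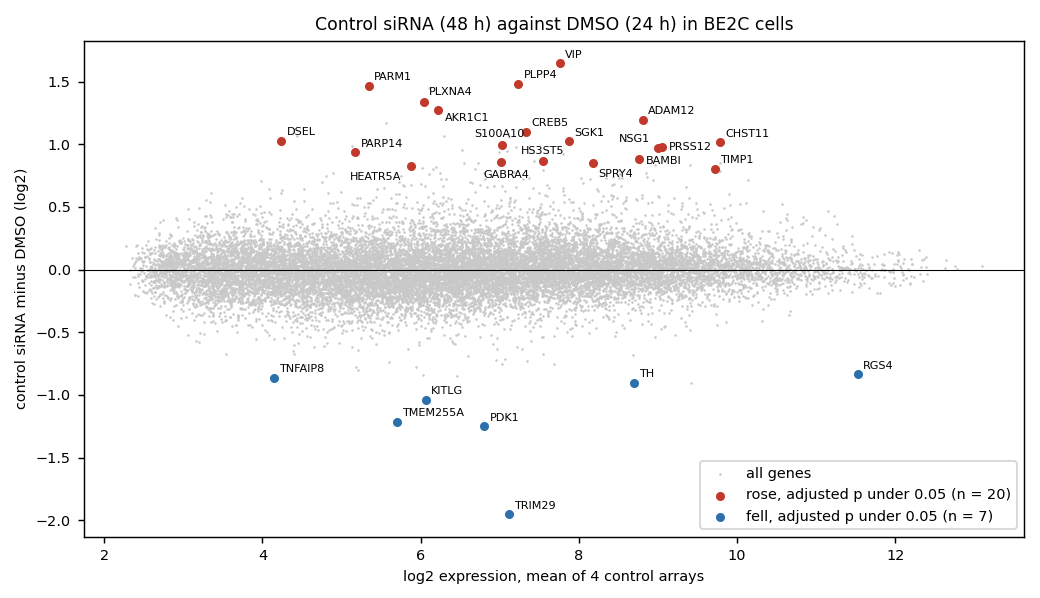
Difference between control siRNA and DMSO (log2) against the mean over the 4 arrays for 17687 genes, with the 20 genes that rose in red and the 7 that fell in blue. TRIM29 at -1.95 and VIP at 1.65 are the extremes, and the grey cloud of the other genes is centred on 0.

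VIP, a neuropeptide that sympathetic ganglia and neuroblastomas make, read 8.74 and 8.42 with control siRNA and 6.92 and 6.95 with DMSO. Its rise was 1.65 ± 0.13 (SE; adjusted p = 0.0106, limma), 3.13-fold. PLXNA4, a receptor for semaphorins in axon guidance, read 6.86 and 6.55 with control siRNA and 5.42 and 5.33 with DMSO. GABRA4, a subunit of the GABA-A receptor, read 7.40 and 7.50 with control siRNA and 6.59 and 6.59 with DMSO. Both groups were far apart for each of these genes, and the adjusted p was 0.0272 for PLXNA4 and 0.0445 for GABRA4 by limma. NSG1, a neuronal endosome protein, rose by 0.97 and PRSS12, the synaptic protease neurotrypsin, by 0.98. These genes are described together for their known roles, and no theme was tested.

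The promoter of VIP is shown because a cyclic AMP response element is a well known control site of this gene. It holds the 160 bases before the annotated start at chr6:152750637-152750796 of GRCh38.p14, plus strand, from RefSeq, with capitals for TGACG, the core of that element, on either strand.
VIP: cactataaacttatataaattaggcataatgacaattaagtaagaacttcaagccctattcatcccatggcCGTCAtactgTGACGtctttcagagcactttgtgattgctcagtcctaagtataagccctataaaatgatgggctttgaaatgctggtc
The core was found 2 times, once on each strand and a few bases apart. In windows of 300 bases, 250 before and 50 after the start, 25% of 27305 promoters held it, and so did 5 of the 25 promoters that could be matched among the 27 genes (20%). CREB5, a member of the factor family that binds this element, rose itself, with 7.80 and 7.96 under control siRNA and 6.81 and 6.75 under DMSO (adjusted p = 0.0272, limma). A match of letters is a description and does not show binding, and a link between CREB5 and the rise of VIP was not tested.

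ADAM12, a membrane metalloprotease, read 9.45 and 9.36 with control siRNA and 8.22 and 8.20 with DMSO, a rise of 1.19 ± 0.11 (SE; adjusted p = 0.0179, limma). CHST11, which sulfates chondroitin, read 10.37 and 10.20 with control siRNA and 9.20 and 9.34 with DMSO. TIMP1, a secreted inhibitor of metalloproteases, read 10.12 and 10.12 with control siRNA and 9.30 and 9.33 with DMSO. The fold changes were 2.29 for ADAM12, 2.02 for CHST11 and 1.75 for TIMP1. HS3ST5, a heparan sulfate sulfotransferase, rose by 0.87, and PARM1, a mucin-like membrane protein, rose by 1.47 and lay above the negative controls on 1 of the 2 DMSO arrays. These genes are named as they passed, and no list of matrix genes was tested.

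PLPP4, a lipid phosphatase, read 8.03 and 7.91 with control siRNA and 6.48 and 6.50 with DMSO, a rise of 1.48 ± 0.11 (SE; adjusted p = 0.0099, limma). SGK1, a kinase induced by serum and glucocorticoids, read 8.51 and 8.27 with control siRNA and 7.36 and 7.37 with DMSO. AKR1C1, a reductase of steroids and reactive carbonyls and a target of NRF2, read 7.08 and 6.63 with control siRNA and 5.52 and 5.65 with DMSO. It had the widest replicate gap of the 20 genes that rose, yet both of its control siRNA arrays were above both DMSO arrays. SPRY4, a feedback inhibitor of receptor tyrosine kinase signalling, rose by 0.85, BAMBI, a decoy receptor for TGF-beta ligands, by 0.88, the annexin partner S100A10 by 1.00 and HEATR5A by 0.83. DSEL passed at 4.86 and 4.64 with control siRNA and 3.62 and 3.83 with DMSO, but only 1 of these 4 values was above the negative controls, so no fold is given.

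TRIM29, a tripartite motif protein of epithelia with roles in DNA damage and innate signalling, fell more than any other gene. It read 6.18 and 6.09 with control siRNA and 8.09 and 8.08 with DMSO, a change of -1.95 ± 0.11 (SE; adjusted p = 0.00236, limma), 3.86-fold. Its replicates lay close together, and the 2 groups far apart. PDK1, a mitochondrial kinase that restrains pyruvate dehydrogenase, read 6.31 and 6.04 with control siRNA and 7.49 and 7.36 with DMSO (adjusted p = 0.0272, limma). TMEM255A, a membrane protein, read 5.12 and 5.07 with control siRNA and 6.23 and 6.39 with DMSO. KITLG, the ligand of KIT, read 5.66 and 5.43 with control siRNA and 6.56 and 6.61 with DMSO. The fold changes of these 3 genes were 2.37, 2.32 and 2.05, all lower with control siRNA.

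TH, which carries out the limiting step on the way from tyrosine to dopamine, also fell. It read 8.18 and 8.31 with control siRNA and 9.19 and 9.11 with DMSO, a change of -0.90 ± 0.11 (SE; adjusted p = 0.0445, limma), 1.87-fold. RGS4, which shortens signalling by G proteins and is common in neurons, read 11.09 and 11.11 with control siRNA and 11.95 and 11.92 with DMSO, 1.78-fold lower. TNFAIP8 passed at 3.67 and 3.76 with control siRNA and 4.63 and 4.51 with DMSO, with only the first DMSO array above the negative controls, and has no fold.

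**Figure D4:**
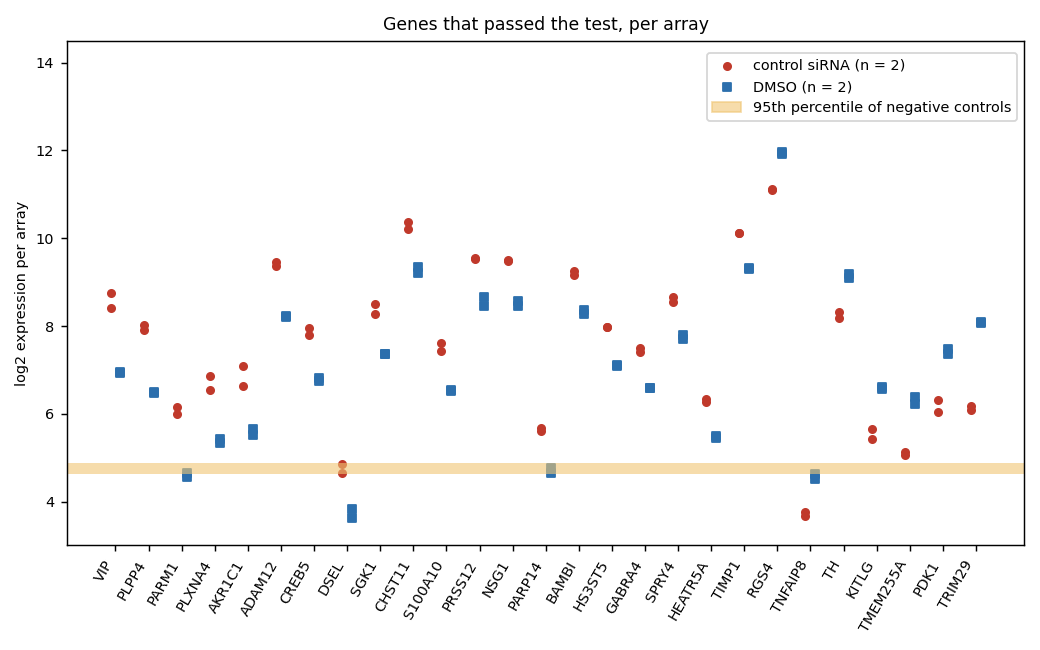
Log2 expression on each array for the 27 genes that passed the test, with control siRNA as red circles left of DMSO as blue squares and the 4 arrays' background as a band. Control siRNA and DMSO do not overlap for any of them, and DSEL and TNFAIP8 lie in or under the band.

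TH was the only one of the 15 catecholamine genes to pass, where 0.153% of all genes passed. DBH read 10.61 and 10.63 with control siRNA and 10.57 and 10.45 with DMSO, and CHGA 11.27 and 11.25 with control siRNA and 11.36 and 11.30 with DMSO. SCG2, a granin, was 0.72 higher and SLC18A1 0.47 lower with control siRNA (adjusted p = 0.0942 and 0.221, limma). The list's median difference was 0.02, and 6 of its genes were higher and 6 lower with no overlap, against 20.1% and 19.8% of all genes. None of the 17 adrenergic factors passed, against 0.153% of all genes. INSM1 was nearest, with a mean of 6.04 on the control siRNA arrays and 6.89 on the DMSO arrays (adjusted p = 0.0984, limma). Of the 17, 11 were lower and 4 higher with no overlap, against 19.8% and 20.1% of all genes. The list median was -0.09.

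Neuropeptides had a median difference of 0.14, and VIP alone of the 12 passed, against 0.153% of all genes. ADCYAP1, which encodes the VIP relative PACAP, read 7.02 and 6.65 with control siRNA and 5.88 and 5.65 with DMSO (adjusted p = 0.062, limma). NPY read 7.64 and 7.27 with control siRNA and 6.50 and 6.53 with DMSO (adjusted p = 0.0661, limma). The groups were apart for both, but neither passed. GAL was 0.43 higher, and PCSK1N 0.20 lower.

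Of 36 measured genes that answer double-stranded RNA or interferon 0 passed, against 0.153% of all genes. At an unadjusted p under 0.05, 5 were higher and 1 lower, against 5.67% and 4.04% of all genes, and 8 were higher and 3 lower with no overlap, against 20.1% and 19.8%. The list median was -0.02, but 16 of the 36 were above the negative controls on no array, so it says little of a common shift. The higher values were those of OAS1, a sensor of double-stranded RNA, with 7.52 and 7.62 under control siRNA and 6.90 and 6.69 under DMSO (adjusted p = 0.0769, limma), and of IRF9, a subunit of the interferon-activated factor ISGF3, with 6.06 and 6.19 under control siRNA and 5.26 and 5.51 under DMSO (adjusted p = 0.102, limma). OAS3 was 0.59 higher and PARP9 0.42 higher. IFIT1 read 3.84 and 4.07 with control siRNA and 3.81 and 3.82 with DMSO, and ISG15 read 4.83 and 5.06 with control siRNA and 5.09 and 4.91 with DMSO. Both are strongly inducible by interferon, and both were at or near the negative controls in the 2 groups.

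Outside that list, PARP14, an ADP-ribosyltransferase that interferon can induce, was 1 of the 20 genes that rose. It read 5.67 and 5.61 with control siRNA and 4.76 and 4.65 with DMSO (adjusted p = 0.0416, limma), and 1 of the 2 DMSO values was above the negative controls. Its neighbour DTX3L, an E3 ligase that pairs with PARP9, read 7.11 and 7.19 with control siRNA and 6.06 and 6.53 with DMSO, and did not pass (adjusted p = 0.132, limma). DDX60L, a helicase-like gene that was named after its values were seen, read 4.76 and 5.18 with control siRNA and 3.97 and 3.84 with DMSO (adjusted p = 0.062, limma). The promoter of PARP14 is shown because it holds the interferon-stimulated response element in its plainest form, 2 GAAA blocks a pair of bases apart (GAAANNGAAA, on either strand), in capitals. The bases are the 160 before the annotated start at chr3:122680679-122680838 of GRCh38.p14, plus strand, from RefSeq.
PARP14: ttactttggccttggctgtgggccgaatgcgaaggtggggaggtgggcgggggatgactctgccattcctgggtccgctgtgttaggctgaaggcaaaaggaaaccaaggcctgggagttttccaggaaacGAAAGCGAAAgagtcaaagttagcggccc
Over windows of 300 bases, 3.65% of 27305 promoters held this motif, as did 19 of the 28 list genes whose promoter could be matched (67.9%). Of the list genes whose values in both groups or differences are given above, OAS3, IFIT1 and ISG15 held 2 matches each, and OAS1, IRF9 and PARP9 held none.

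Metallothioneins, small proteins that bind zinc and copper, had the largest list median of the response lists at 0.33. Of 13 measured genes 0 passed, against 0.153% of all genes. At an unadjusted p under 0.05, 8 were higher, against 5.67% of all genes. With no overlap, 10 were higher and 0 lower, against 20.1% and 19.8%. MT1X read 8.84 and 8.96 with control siRNA and 8.17 and 8.04 with DMSO (adjusted p = 0.062, limma). MT2A read 9.31 and 9.44 with control siRNA and 8.70 and 8.38 with DMSO (adjusted p = 0.093, limma). The zinc exporter SLC30A1, which the same metal-sensing factor controls, was 0.16 higher, and MT3, the form of the nervous system, 0.04 higher. Metallothionein copies are close in sequence, so their probe sets may share signal and are not independent. The promoters of MT2A and MT1X are shown because they carry the metal response elements of this family, with capitals for TGCACNC or TGCGCNC on either strand. They are the 160 bases before the annotated starts at chr16:56608424-56608583 and chr16:56682310-56682469 of GRCh38.p14, both on the plus strand, from RefSeq.
MT2A: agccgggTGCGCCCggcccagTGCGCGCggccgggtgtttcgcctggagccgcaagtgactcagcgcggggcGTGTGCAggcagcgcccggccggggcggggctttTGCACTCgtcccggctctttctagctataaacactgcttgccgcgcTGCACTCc
MT1X: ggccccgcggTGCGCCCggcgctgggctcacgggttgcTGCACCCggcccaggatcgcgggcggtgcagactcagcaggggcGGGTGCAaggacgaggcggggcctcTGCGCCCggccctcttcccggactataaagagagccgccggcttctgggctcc
The stretch shown held 5 matches in MT2A and 4 in MT1X, against a mean of 0.412 matches per 300 bases over all promoters, of which 29.3% had at least 1.

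Immediate early and MAPK feedback genes had a median difference of 0.21 over 31 genes, with SPRY4 the only one to pass, against 0.153% of all genes. At an unadjusted p under 0.05, 13 were higher and 1 lower, against 5.67% and 4.04% of all genes. ATF3 read 6.56 and 6.69 with control siRNA and 5.86 and 5.85 with DMSO (adjusted p = 0.062, limma), and EGR1 read 8.09 and 8.15 with control siRNA and 7.58 and 7.37 with DMSO (adjusted p = 0.124, limma). DUSP4 was 0.57 and ETV5 0.55 higher, whereas DUSP6 was 0.14 and SPRY1 0.42 lower.

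Genes of the unfolded protein response had a median difference of 0.20, with 0 of 17 passing, against 0.153% of all genes. Of these, 12 were higher and 0 lower with no overlap, against 20.1% and 19.8% of all genes, the widest being EDEM1 at 0.45 and CRELD2 at 0.42, while XBP1 was at -0.02. The RNA interference machinery, through which an siRNA acts, had a median of 0.13, with 0 of 12 passing, against the same 0.153%. TNRC6A, a partner of the Argonaute proteins, read 9.56 and 9.58 with control siRNA and 8.96 and 9.12 with DMSO, and AGO2, the slicing Argonaute, was 0.22 higher. Among NRF2 targets AKR1C1 passed, NQO1 was 0.50 higher and HMOX1 0.02 higher, and the list median was 0.02. Among hypoxia and glycolysis genes PDK1 passed, BNIP3L was 0.44 and SLC2A1 0.20 lower, ENO1 was 0.07 lower, EGLN3 was 0.40 higher, and the list median was -0.09. EPAS1, the hypoxia factor HIF-2alpha, which was chosen after its values were seen, read 8.83 and 9.11 with control siRNA and 9.80 and 9.94 with DMSO (adjusted p = 0.0639, limma).

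Growth genes moved little. The list median was -0.04 over 57 E2F targets, 0.02 over 64 G2/M genes and 0.03 over 32 MYC targets of ribosome biogenesis. It was -0.04 over 26 genes of sterol and fatty acid synthesis and -0.02 over 11 heat shock genes. None of their members passed, against 0.153% of all genes, which says little for lists this short. The p53 targets had a median of 0.05, with CDKN1A 0.61 higher (adjusted p = 0.273, limma). NF-kB targets had 0.05 and ATF4 targets -0.00. Mesenchymal genes had 0.05, and none passed. VIM was 0.71 higher, at 9.27 and 9.31 with control siRNA and 8.89 and 8.26 with DMSO, but the DMSO arrays differed by nearly as much as the groups did. SNAI2, which is in the neural crest and progenitor list, was 0.73 higher. It read 8.88 and 8.86 with control siRNA and 8.10 and 8.17 with DMSO (adjusted p = 0.0622, limma).

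**Figure D5:**
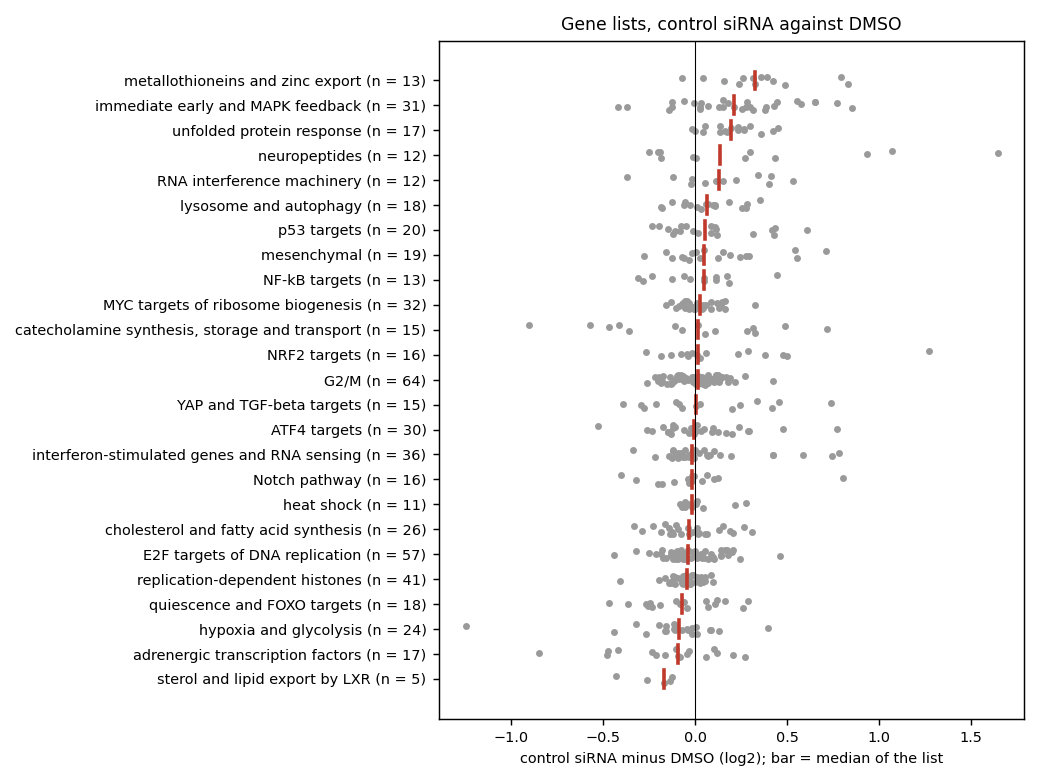
Difference between control siRNA and DMSO (log2) for each measured gene of the response lists and of 4 lineage lists, with the list median as a red bar and lists ordered by it. Medians lie between -0.17 for sterol export and 0.33 for metallothioneins, and most lists straddle 0.

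The genes listed here, chosen from those that the text of the study names, were close in both groups. CDKN1A, which that text also names, is given above with the p53 targets. KDM6B, whose siRNA the control serves, read 8.27 and 8.35 with control siRNA and 8.17 and 8.47 with DMSO, a difference of -0.00 with a 95% interval from -0.31 to 0.30. MYCN differed by -0.08 (-0.32 to 0.16), EZH2 by -0.17 (-0.42 to 0.08), CDK4 by 0.08 (-0.19 to 0.34), CDK6 by -0.01 (-0.26 to 0.25) and E2F1 by 0.14 (-0.11 to 0.39). KDM6A differed by 0.14, MYC by -0.13, RB1 by 0.03 and E2F8 by 0.14. The groups did not overlap for MYCN and EZH2, which were lower with control siRNA, and for E2F1, which was higher. The same lack of overlap held for 39.9% of all genes. None passed, and the intervals leave room for changes of up to 0.56 log2 units in E2F8.

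Fibroblast markers differed between the groups in their sum. Their summed level was 9.86 and 9.75 on the control siRNA arrays and 9.58 and 9.53 on the DMSO arrays (log2 of the sum over 6 genes), with DCN 0.56 and LUM 0.34 higher and COL1A1 0.23 lower. None of the 6 passed, PDGFRA and POSTN were above background on no array, and their part in the rises of matrix genes was not tested. The summed level of leukocyte markers ran the other way, at 7.943 and 8.004 on the control siRNA arrays and 8.174 and 8.099 on the DMSO arrays. CD14 was 0.60 lower, but the median difference of these markers was 0.02. None of the 7 passed, and CD3E, LYZ and MS4A1 were above background on no array. Summed levels overlapped between the groups for the other lists of cell type markers.

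The calls rested on few arrays. With any 1 of the 4 arrays left out, 0 genes passed, while 1058 to 2287 had an unadjusted p under 0.05 by limma, and the spread then came from a single remaining pair. With all 8 arrays sharing the spread only PLPP4 and TRIM29 passed.

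The KDM6B siRNA and GSK-J4 arrays share no array with the controls and differ in the same transfection and time, besides the KDM6B siRNA and the inhibitor. Of the 20 genes that rose, 11 were higher with KDM6B siRNA than with GSK-J4, as were 52.48% of all genes, and for 9 both arrays were higher, as for 23.71% of all genes. Of the 7 that fell, 5 were lower with KDM6B siRNA, while 52.48% of all genes were higher. For 4 of the 7 both arrays were lower, as for 20.89% of all genes. TRIM29 read 5.43 and 5.31 with KDM6B siRNA and 8.32 and 8.18 with GSK-J4, and TH 7.30 and 7.11 with KDM6B siRNA and 9.16 and 9.14 with GSK-J4. PDK1 read 5.31 and 6.06 with KDM6B siRNA and 8.94 and 8.81 with GSK-J4. VIP read 7.91 and 8.63 with KDM6B siRNA and 6.54 and 6.71 with GSK-J4, and SGK1 8.24 and 8.39 with KDM6B siRNA and 6.68 and 6.94 with GSK-J4. ADAM12 was 1.96 higher on average with KDM6B siRNA than with GSK-J4. SPRY4 ran the other way, at 7.44 and 7.15 with KDM6B siRNA and 8.44 and 8.66 with GSK-J4. So did S100A10 and NSG1, which were on average 0.86 and 0.72 lower with KDM6B siRNA. For CHST11 the KDM6B siRNA arrays themselves were apart, at 10.05 and 7.83, with GSK-J4 at 9.45 and 9.38 between them. PLPP4 was 0.48 higher on average with KDM6B siRNA than with GSK-J4. Its KDM6B siRNA values of 6.46 and 6.48 lay near its DMSO values of 6.48 and 6.50. Its control siRNA values were 8.03 and 7.91, so its rise was not seen on the other transfected arrays. The cause was not tested.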

How the data were processed

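BE2C RNA had been extracted on columns and labelled for Clariom S arrays with a whole-transcript kit. The authors deposited 1 log2 value per probe set and array; the submitters' processing notes name GCOS, while the correction, scaling and summarization steps are not given in the labels or methods used here. Of 24351 probe sets, 21448 were for transcripts, of which 17709 had 1 symbol and 3739 none. Where a gene had several (20 genes), the probe set with the highest mean was used, which left 17687 genes. The 4 control arrays alone were fitted in limma (3.58.1, under R 4.3.3), with 1 mean per group, moderated by eBayes and tested two-sided, with 2 residual degrees of freedom and Benjamini-Hochberg adjustment over all genes at 0.05. The members and the 40 gene lists (811 entries) were chosen with earlier results of these data known, and list counts and medians are descriptions. Named genes were the 20 highest signals, members of the lineage and marker lists, the largest changes among genes that passed, up to 4 such genes per list, genes of the study's text and the widest replicate gaps; others are marked as chosen after their values were seen or illustrate a list. Alternatives covered the arrays in the fit, scaling, filters, the prior variance, the methods' t-test, the threshold and each array left out. The number of arrays limits the precision.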

Additional observations from a re-analysis of the deposited data

How the results depend on the processing

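The count of 27 genes depended strongly on the setting. It was 2 with all 8 arrays in the fit, 64 without the KDM6B siRNA arrays (26 of the 27 among them), 9 after quantile normalization, 50 after median centring, 84 when only the 13300 genes above the negative controls on at least 2 arrays were tested, 367 with values floored at the negative controls, 313 with a trend in the prior variance, and 0 with the methods' t-test after Benjamini-Hochberg adjustment (1342 at an unadjusted p under 0.05). Leaving out 1 array gave 0 to 0 genes. With the replicate number as a block it was 103, with all 27 among them. The deviations of same-numbered arrays correlated at 0.01, so the numbers were not taken to pair the arrays. The directions of the 27 genes held in every setting except that of TNFAIP8, which came to 0.0485 with values floored at the negative controls. The cause of these changes was not tested. The 3892 genes above on no array became 2654 with the 90th percentile of the negative controls, 7770 with the 99th, 11248 with the highest GC background (a threshold chosen after seeing the data), and 3912 to 4274 with 1 array left out. With 2 arrays a group, small differences and dim genes could not be resolved.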

Other observations

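Of 3739 transcript probe sets without a gene symbol, which entered no comparison above, 2114 were above the negative controls on all 4 arrays and 1284 on none. Their differences between control siRNA and DMSO ran from -0.96 to 0.98, and 0 passed when p-values were adjusted over all transcript probe sets by limma.

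Genes near the negative controls could appear or disappear between the groups. Of 17687 genes, 19 were above on both control siRNA arrays and on neither DMSO array. Among them was BPIFC at 5.20 and 5.06 with control siRNA and 4.34 and 4.70 with DMSO. The opposite held for 46 genes, among them ADAMTS5 at 4.28 and 4.67 with control siRNA and 5.22 and 4.95 with DMSO. The background was 4.62 on the first DMSO array and 4.89 on the second, and its part in these counts was not tested. BPIFC and ADAMTS5 did not pass (adjusted p = 0.22 and 0.273, limma). Both were chosen after their values were seen.

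TMEM87B had the largest difference among genes that did not pass, at 6.85 and 6.81 with control siRNA and 5.05 and 5.71 with DMSO (1.45, adjusted p = 0.0576, limma), with the DMSO arrays 0.66 apart. HTR2B, a serotonin receptor, read 6.35 and 5.94 with control siRNA and 4.86 and 5.09 with DMSO (adjusted p = 0.0576, limma).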
